A study of Mus musculus with 10 samples.

Results

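Solute carriers are membrane proteins that move small molecules across the cell surface and across the membranes of mitochondria, lysosomes, the Golgi apparatus and secretory vesicles. This account covers 190 solute carrier genes measured in epithelial crypts of the mouse distal colon, out of 23364 genes in the deposited tables. They are the rows with a solute carrier symbol whose mean in untreated mice was at least 100 normalized reads, without 11 carriers that are named separately. The tables held 357 rows with such a symbol, of which 157 lay under that floor, and 10 of the 11 separate carriers lay at or above it. The control mean therefore chose the members, and both comparisons with control contain it, so calls against control are given for description. Just inside the floor stood Slc3a1, Slc23a3 and Slc43a3 with control means of 102, 105 and 106 normalized reads, and just outside it Slc41a3, Slc35d2 and Slc25a27 with 92.2, 90.5 and 84.3.

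The colon lining takes up short-chain fatty acids, salts, vitamins and leftover amino acids and peptides through carriers on the luminal side, and passes them to the blood through others on the basolateral side. Carriers of families Slc25 and Slc35 serve mitochondria and the Golgi apparatus instead. The label of the group is a family name and not a cell type, and many members are made by every cell, including immune and stromal cells that come along with crypts.

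The 3 AOM+DSS libraries came from mice treated with azoxymethane, a DNA-alkylating carcinogen, and then with dextran sulfate sodium. The 4 DSS libraries came from mice that received only dextran sulfate sodium, a polymer that injures the colon lining and inflames it, and the 3 control libraries from untreated mice. Crypts were shaken off the distal colon in EDTA, and poly(A) RNA was sequenced. The sources used here give no strain, age, dose or time, nor whether each library is 1 animal, and p-values therefore gauge the spread between these samples alone, part of which may be technical. In such bulk samples, fewer cells of a type and less RNA per cell cannot be told apart.

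As the tables list only means per group, the reads of each library were worked back from those means for all 190 members in AOM+DSS and control and for 146 in DSS, where the other 44 are given by their group mean. Libraries carry letters within their group, deepest first, which are not tied to the labels' replicate numbers. Recovered depth was 16165300 to 23593132 reads in AOM+DSS and 16648814 to 18360378 in control, and the DSS size factors of 1.27, 1.21, 0.706 and 0.645 show a pair of deep and a pair of shallow libraries. The pan-epithelial markers were present in every group, and 0 of 10 passed in either comparison of the authors' deposited table (DESeq; 1 lower in AOM+DSS and 1 higher in DSS at an unadjusted p under 0.05, and by limma 1 higher and 1 lower of 8 fitted in AOM+DSS). Of 12 myeloid markers, 8 were higher in AOM+DSS and 5 in DSS listed in the authors' deposited table, and none stood at 0. Their recovered sums were 8583, 13925 and 6602 normalized reads in AOM+DSS libraries a to c, 10012, 11094, 3288 and 3386 in DSS libraries a to d, and 1552, 3384 and 1574 in control libraries a to c. Single genes carried much of some sums. Ptprc, which is not particular to myeloid cells, held 4607 in DSS library a, and Cd14 held 1132, 1281 and 1291 in control libraries a to c. Smooth muscle markers summed to 14744 normalized reads in AOM+DSS library c and to 1886 and 1642 in a and b, fibroblast markers to 2807 in control library b and to 614 and 681 in a and c, and markers of B and plasma cells to 8836 in DSS library a and 1738 to 3019 in b to d.

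Most members stayed close to control: 122 of 190 had AOM+DSS and DSS means within 1.5-fold of the control mean. In AOM+DSS, 10 members (5.26%) passed the authors' adjusted p of 0.05 upward and 16 (8.42%) downward. Over all genes tested, 5.54% passed upward and 3.35% downward, and over genes at or above the same floor 4.8% upward and 5.51% downward. In DSS, 2 members (1.05%) passed upward and 12 (6.32%) downward, where 2.61% and 1.78% of all genes tested and 2.9% and 2.82% of genes at or above the floor did so. The calls covered 28 members in all, of which 12 passed in both comparisons, 14 in AOM+DSS alone and 2 in DSS alone. Both comparisons use the same control libraries. By limma on recovered reads, 51 of 190 members (26.8%) passed in AOM+DSS and 18 of 146 (12.3%) in DSS, where 22.6% and 7.96% of all genes fitted passed, and 21.1% and 7.7% of those at or above the floor. Leaving out control library b and AOM+DSS library c, a choice made after seeing the data, gave 93 in AOM+DSS (48.9%, beside 47.1% of genes fitted), and leaving out DSS libraries a and b gave 37 in DSS (25.3%, beside 14.8%). Leaving out 1 library at a time gave 10 members in AOM+DSS without control library a (5.26%, beside 3.87% of genes fitted) and 17 without control library c (8.95%, beside 6.2%). It gave 18 without AOM+DSS library a (9.47%, beside 5.94%) and 31 without AOM+DSS library b (16.3%, beside 10.5%). It gave 58 without control library b (30.5%, beside 30.8%) and 79 without AOM+DSS library c (41.6%, beside 32.2%). In DSS it gave 4 without control library a (2.74%, beside 1.44%) and 5 without control library c (3.42%, beside 1.9%). The median log2 ratio of the members was -0.09 in AOM+DSS, beside -0.03 for all genes at or above the floor, and -0.01 in DSS, beside 0.02.

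**Figure D1:**
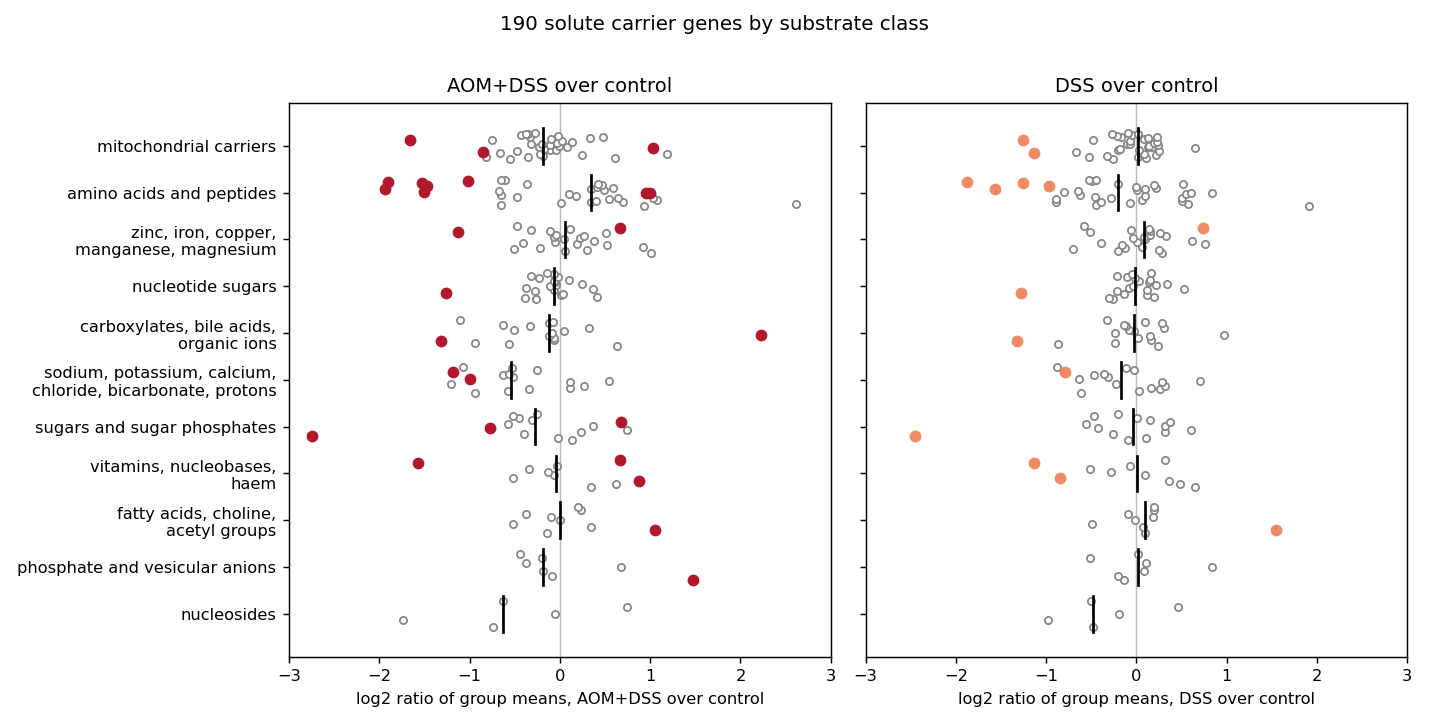
Each point is 1 of 190 solute carrier genes, placed by its log2 ratio of group means over control in AOM+DSS (left) and DSS (right) and grouped by substrate class down the page. Filled points passed the authors' adjusted p of 0.05, open points did not, and a black bar is the class median. Most points lie near 0, and the filled points on the left reach -2.75 for Slc2a5 and 2.22 for Slc16a3.

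By substrate, the most calls by number stood among amino acid and peptide carriers, which are a large class. It was set by family number and includes the serotonin carrier Slc6a4 and the creatine carrier Slc6a8. Of 33 members, 2 were higher and 6 lower in AOM+DSS, and 0 were higher and 4 lower in DSS. The 10 carriers of vitamins, nucleobases and haem had a larger share called in both comparisons. Of these, 2 were higher and 1 lower in AOM+DSS, and 0 were higher and 2 lower in DSS. Ion carriers had 2 of 16 lower in AOM+DSS and 1 in DSS, with none higher, and their median log2 ratio was -0.54 in AOM+DSS and -0.17 in DSS. At an unadjusted p under 0.05 by DESeq, 0 were higher and 8 lower in AOM+DSS, and 1 higher and 4 lower in DSS. Limma called 0 higher and 6 lower of 16 fitted in AOM+DSS, and 0 higher and 1 lower of 11 fitted in DSS. Beside this and the other limma counts by class, limma called 21.1% of all genes at or above the floor in AOM+DSS and 7.7% in DSS, in either direction. Mitochondrial carriers, the largest class with 35 members, had 1 higher and 2 lower in AOM+DSS and 2 lower in DSS. None of 5 nucleoside carriers passed by DESeq (1 higher and 2 lower in AOM+DSS and 1 higher and 1 lower in DSS at an unadjusted p under 0.05), while limma called 2 lower in AOM+DSS and 0 in DSS, and 1 of 21 nucleotide sugar carriers was lower in each comparison. The plot of log2 ratios by substrate class shows these calls beside the members that did not pass.

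The fructose carrier Slc2a5 (GLUT5) had the lowest ratio of all called members. Its AOM+DSS libraries a to c held 37.9, 20.7 and 34.2 normalized reads, its DSS libraries a to d 37.2, 30.5, 43.9 and 40.3, and its control libraries a to c 167, 233 and 222. Every AOM+DSS and DSS library lay below every control library, and the AOM+DSS and DSS libraries overlapped. Slc2a5 fell by 2.75 on the log2 scale in AOM+DSS (adjusted p = 1.94e-07) and fell by 2.45 in DSS (adjusted p = 3.36e-07) as listed in the authors' deposited table. The proton-coupled inositol carrier Slc2a13 fell in AOM+DSS, with 637, 365 and 816 normalized reads in AOM+DSS and 1015, 1176 and 914 in control (log2 -0.77, adjusted p = 0.0230 as reported in the authors' deposited table). Slc5a1, the sodium-glucose cotransporter SGLT1, averaged 3270.1 ± 244 in AOM+DSS and 4674 ± 188 in control (SD, n = 3 each), with a DSS mean of 3371, and did not pass (adjusted p = 0.125 and 0.252 as given in the authors' deposited table). Slc45a3, of the family of sucrose carriers, was the one sugar class member called higher in AOM+DSS. It held 2577, 2719.7 and 2067 in AOM+DSS and 1558, 1765 and 1290.1 in control (log2 0.67, adjusted p = 0.0239 listed in the authors' deposited table).

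The promoters of 3 called members follow: Slc2a5 with the largest fall in AOM+DSS, Slc16a3 with the largest rise there, and Slc36a1 with the smallest adjusted p of the members in both comparisons. They are the 250 bases before the start of Slc2a5 (chr4:150119094-150119343, plus strand), of the amino acid carrier Slc36a1 (chr11:55204090-55204339, plus strand) and of the lactate carrier Slc16a3 (chr11:120948817-120949066, plus strand), from RefSeq on GRCm38.p6, whereas the reads were mapped to mm9. Capitals mark ACGTG on either strand, the core of the element bound by hypoxia-inducible factors, and in CACGTG the matches on both strands overlap.
Slc2a5: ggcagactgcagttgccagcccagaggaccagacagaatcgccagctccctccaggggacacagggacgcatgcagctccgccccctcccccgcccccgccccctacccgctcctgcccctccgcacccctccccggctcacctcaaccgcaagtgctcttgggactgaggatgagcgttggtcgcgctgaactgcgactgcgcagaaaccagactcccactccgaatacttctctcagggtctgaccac
Slc36a1: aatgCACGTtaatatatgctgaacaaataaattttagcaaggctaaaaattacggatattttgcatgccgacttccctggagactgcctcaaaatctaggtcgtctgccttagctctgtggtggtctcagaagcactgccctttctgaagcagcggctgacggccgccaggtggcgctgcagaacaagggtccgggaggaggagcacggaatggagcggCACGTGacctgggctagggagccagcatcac
Slc16a3: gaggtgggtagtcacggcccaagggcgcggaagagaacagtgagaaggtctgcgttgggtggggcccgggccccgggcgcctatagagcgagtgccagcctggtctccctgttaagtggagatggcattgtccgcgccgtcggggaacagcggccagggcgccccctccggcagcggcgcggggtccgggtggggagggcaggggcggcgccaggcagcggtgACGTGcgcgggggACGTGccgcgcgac
In these stretches Slc2a5 had 0 matches, Slc36a1, which fell, had 3, and Slc16a3, which rose, had 2. Matches before other starts of these genes are not given. Of 32851 promoters of this length, 16.6% held ACGTG on either strand, and 41 of the 196 listed for 146 members did (20.9%). An amino acid response element, TGATGNAA on either strand, stood in 3.45% of all promoters and in 5 of 196 (2.55%) for members, and in none of the promoters printed here.

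The members of the amino acid and peptide class called lower in DSS were Slc36a1, Slc15a1, Slc1a1 and, placed there by family number, the serotonin carrier Slc6a4. All of them were also called lower in AOM+DSS. Slc36a1 (PAT1), which moves small neutral amino acids together with protons across lysosomal and luminal membranes, held 1893, 1586 and 2159.8 normalized reads in AOM+DSS and 8222, 7269.6 and 5641 in control, with a DSS mean of 1921. No AOM+DSS library came near the lowest control library. Slc36a1 fell by 1.91 on the log2 scale in AOM+DSS (adjusted p = 9.95e-11) and fell by 1.87 in DSS (adjusted p = 3.25e-11) as listed in the authors' deposited table.

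Slc15a1 (PEPT1), the proton-coupled carrier of dipeptides and tripeptides, stood at 1246, 808 and 1930.0 normalized reads in AOM+DSS, 1232, 1065, 2304 and 1793 in DSS and 4349.6, 3877 and 3255 in control. All treated libraries lay below the controls, and within DSS the shallow libraries c and d were above a and b. It fell by 1.53 in AOM+DSS (adjusted p = 2.25e-05) and fell by 1.26 in DSS (adjusted p = 0.000145) as log2 ratios listed in the authors' deposited table. The glutamate and aspartate carrier Slc1a1 had 729, 516 and 818 normalized reads in AOM+DSS, 813, 1026, 1105 and 963 in DSS and 1824, 1815 and 2102 in control. Control libraries stood above all treated libraries, and AOM+DSS and DSS overlapped only through AOM+DSS library c and DSS library a. Slc1a1 fell by 1.48 in AOM+DSS (adjusted p = 2.27e-08) and fell by 0.97 in DSS (adjusted p = 0.000278) as reported in the authors' deposited table.

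A pair of further amino acid carriers were called lower in AOM+DSS and did not pass in DSS. Slc1a5 (ASCT2), which exchanges glutamine for other neutral amino acids, held 3648, 3863 and 4879 normalized reads in AOM+DSS and 8554, 7358 and 9209 in control, with a DSS mean of 5965. The AOM+DSS libraries all lay below the controls, and Slc1a5 fell by 1.02 (adjusted p = 0.000174) in AOM+DSS, beside a log2 ratio of -0.49 (adjusted p = 0.104) in DSS, as given in the authors' deposited table. The proline carrier Slc6a7 held 132, 152 and 360.1 in AOM+DSS, 221, 188, 551 and 442 in DSS and 656, 446 and 735 in control. AOM+DSS library c and DSS libraries c and d were the high ones of their groups, and DSS overlapped control. Slc6a7 fell by 1.51 in AOM+DSS (adjusted p = 0.0168), and in DSS its log2 ratio was -0.81 (adjusted p = 0.279), per the authors' deposited table. Whether either carrier differed between AOM+DSS and DSS was tested for Slc6a7, where limma gave a log2 difference of -0.71 ± 0.47 (SE; Benjamini-Hochberg adjusted p = 0.572).

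The class members with the highest reads, not corrected for gene length, did not pass. Slc6a8, the creatine carrier, averaged 10388 ± 846 in AOM+DSS and 16340.2 ± 2234 in control (SD, n = 3 each), with 11985 as the DSS mean (adjusted p = 0.0638 and 0.189 listed in the authors' deposited table). Slc6a14, a broad amino acid carrier of the luminal membrane, averaged 7471 ± 2270.2 in AOM+DSS and 11352 ± 1797 in control (SD, n = 3 each), with 7885 as the DSS mean (adjusted p = 0.103 and 0.381, authors' deposited table).

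Markers of several cell types, absorptive and goblet cells among them, had an order like that of many falling carriers. Of the 16 members called lower in AOM+DSS, 10 were highest in AOM+DSS library c and lowest in b, as were 61 of all 190 members. So were 7 of 10 absorptive colonocyte markers and 6 of the 6 goblet cell markers recovered. The same order stood in 8 of 11 fibroblast and matrix, 7 of 10 smooth muscle and 7 of 9 B and plasma cell markers. It also stood in 5 of 8 endothelial and 5 of 10 T and NK cell markers, but in 0 of 12 myeloid and 1 of 8 recovered pan-epithelial markers. The carbonic anhydrase Car4, an absorptive marker, held 8580.5, 4491 and 14762 normalized reads in AOM+DSS. By the authors' deposited table, absorptive markers had a median log2 ratio of -0.50 in AOM+DSS and 0.04 in DSS, with 0 of 10 called in AOM+DSS by DESeq (2 lower at an unadjusted p under 0.05, and 0 of 9 fitted by limma) and Guca2b called higher in DSS. The median of the 9 goblet markers was -0.30 in AOM+DSS and 0.10 in DSS, with Clca3 called lower in AOM+DSS. The part of these cells in the carriers' values was not tested.

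**Figure D2:**
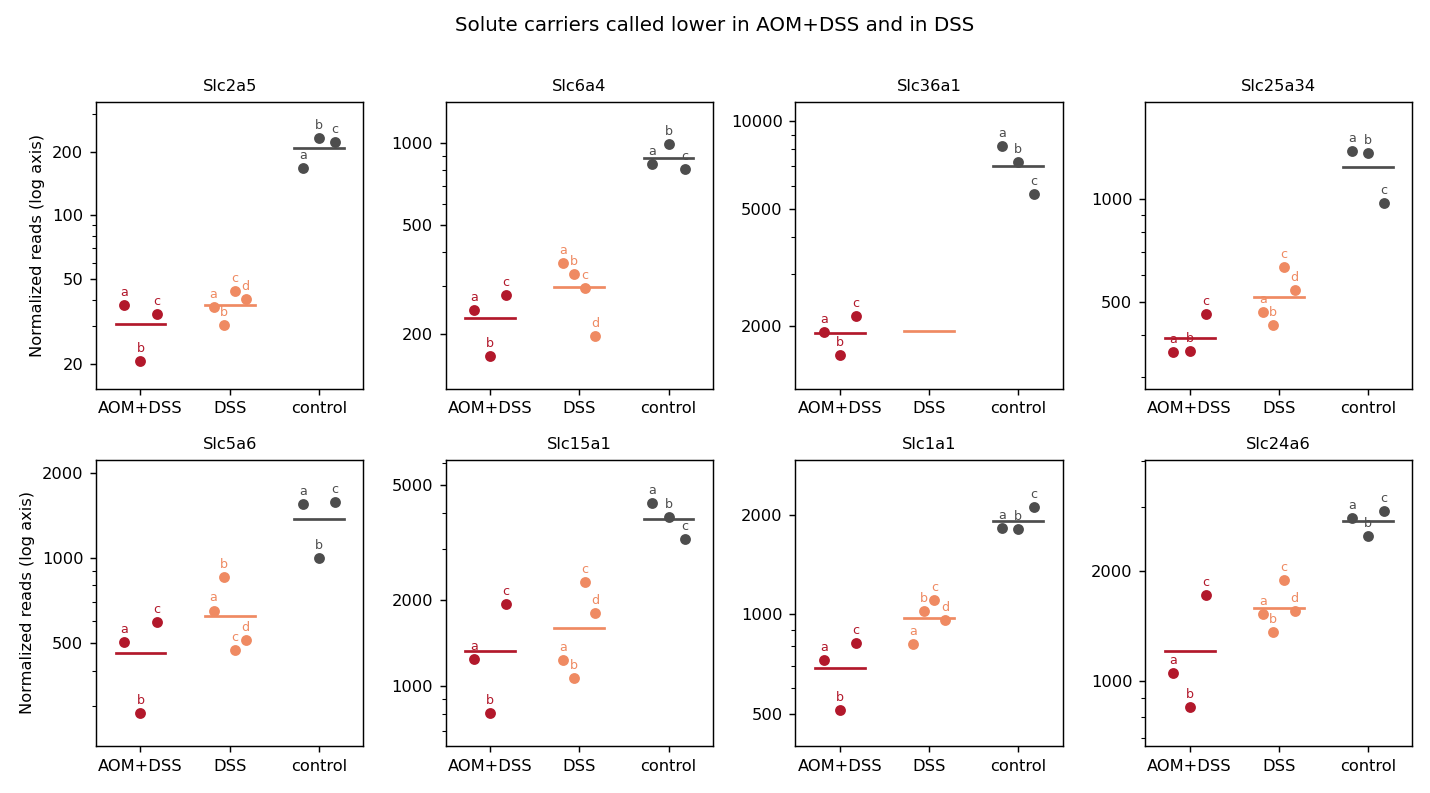
Normalized reads on a log axis for 8 carriers called lower in both comparisons with control; letters are libraries, bars are group means, and Slc36a1 has a mean only in DSS. In each panel the control libraries lie above all AOM+DSS libraries, and Slc2a5 shows the widest gap, with 37.9, 20.7 and 34.2 in AOM+DSS and 167, 233 and 222 in control.

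Against this, Slc1a4 and Slc6a9 rose in AOM+DSS. Slc1a4 (ASCT1), a carrier of serine, alanine and other small neutral amino acids, held 866, 1395 and 1108 normalized reads in AOM+DSS, 738, 979.7, 971 and 1314 in DSS and 472, 646 and 567 in control. Both treated groups lay above control and overlapped with each other. Slc1a4 rose by 1.00 in AOM+DSS (adjusted p = 0.00957), and its log2 ratio of 0.83 in DSS did not pass (adjusted p = 0.0859), as listed in the authors' deposited table. Slc6a9, the glycine carrier GLYT1, held 946, 1159.7 and 668 in AOM+DSS, 691, 738, 722 and 739.9 in DSS and 366, 538 and 526 in control. The DSS libraries lay close together above control, and AOM+DSS library c lay under all of them. Slc6a9 rose by 0.96 in AOM+DSS (adjusted p = 0.00136), and DSS gave 0.60 (adjusted p = 0.141), as reported in the authors' deposited table.

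The exchangers of families Slc3 and Slc7 build heteromers at the cell surface, in which a heavy chain such as Slc3a2 carries a light chain that does the transport. Of 10 members of these families, 0 passed in AOM+DSS and 0 in DSS as given in the authors' deposited table by DESeq, where 3 were higher and 1 lower in AOM+DSS and 2 higher and 1 lower in DSS at an unadjusted p under 0.05. Limma on recovered reads called 2 of the 10 higher (Slc7a6 and Slc7a11) and 1 lower (Slc7a4) in AOM+DSS and 0 in DSS. In AOM+DSS against control, limma called 22.6% of all genes fitted in either direction, and 21.1% of those at or above the floor. Slc7a11 (xCT), which imports cystine in exchange for glutamate, held 477, 1242 and 261 normalized reads in AOM+DSS, 205, 266, 55.2 and 113 in DSS and 81.1, 122 and 119 in control. AOM+DSS library b was far above the rest, every AOM+DSS library lay above control, and DSS overlapped both groups. The log2 ratio of Slc7a11 was the highest of all members in AOM+DSS at 2.62 (adjusted p = 0.201) and was 0.57 in DSS (adjusted p = 1) listed in the authors' deposited table. Limma on log2 values of recovered reads gave Slc7a11 a difference of 2.33 ± 0.52 in AOM+DSS over control (SE, limma adjusted p = 0.0231). The heavy chain Slc3a2 held 1707, 2363 and 1616 in AOM+DSS, 1497, 1289, 1398 and 1512 in DSS and 1531, 1367 and 1376 in control, so that AOM+DSS lay above both other groups, which overlapped.

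Slc7a5 (LAT1), a light chain for large neutral amino acids, held 619, 966 and 358 normalized reads in AOM+DSS, 279, 340.3, 201 and 226 in DSS and 339.9, 322 and 290.2 in control. Slc7a8 (LAT2), a basolateral light chain, held 303, 540.1 and 221 in AOM+DSS, 175, 154, 118 and 79.1 in DSS and 308, 242 and 180.1 in control. For both genes AOM+DSS lay above DSS in every library, and for Slc7a8 AOM+DSS overlapped control while DSS lay below it. Slc16a10 (TAT1), which lets aromatic amino acids pass the basolateral membrane, had the same order with 245, 404 and 130.4 in AOM+DSS, 106, 96.4, 80.7 and 63.6 in DSS and 164, 139 and 177 in control. Slc7a9, the light chain of the luminal cystine carrier, held 204, 242 and 273 in AOM+DSS, 131, 115, 194 and 132 in DSS and 229.8, 215 and 119.7 in control. Slc43a2, a carrier of large neutral amino acids that needs no heavy chain, held 488, 586 and 265 in AOM+DSS, 390.5, 173, 171 and 154 in DSS and 208, 209 and 220.3 in control, and DSS library a alone reached into the AOM+DSS range.

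Most myeloid markers had the same order across the AOM+DSS libraries as most of these exchangers. Slc3a2, Slc7a5, Slc7a8, Slc7a11, Slc16a10 and Slc43a2 were highest in AOM+DSS library b and lowest in library c, whereas Slc7a9 was highest in c and lowest in a. Of the 10 members of families Slc3 and Slc7, 6 were highest in b and lowest in c and 2 highest in c and lowest in b, beside 39 and 61 of all 190 members. Of 12 myeloid markers, 9 were highest in b and lowest in c, and their sum was highest in b (13925 normalized reads) and lowest in c (6602). Of 11 fibroblast and matrix markers, 8 had the reverse order and 9 were highest in c. Their sum, at 6353, 8248 and 5526 in AOM+DSS libraries a to c, 1243, 904, 765 and 675 in DSS libraries a to d and 614, 2807 and 681 in control, was highest in b through Fn1 (3205, 3864 and 1241 in AOM+DSS) and Vim (2513, 4048 and 875 in AOM+DSS). All 10 smooth muscle markers were highest in c. Of the fibroblast and matrix markers, 2 were higher and 1 lower in AOM+DSS as listed in the authors' deposited table. The part of these cells in the exchanger values was not tested. Of 24 listed genes that work with solute carriers and had recovered values, 7 were highest in AOM+DSS library b and lowest in c, and 7 had the reverse order. The stress-response genes Chac1 and Trib3 and the haem oxygenase Hmox1 were among the former. Hmox1 held 378, 872 and 167 normalized reads in AOM+DSS, 114, 192, 52.4 and 76.0 in DSS and 53.1, 67.2 and 61.4 in control. Atf4, from the same list, had the reverse order, with 4190, 4107 and 4946 in AOM+DSS.

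**Figure D3:**
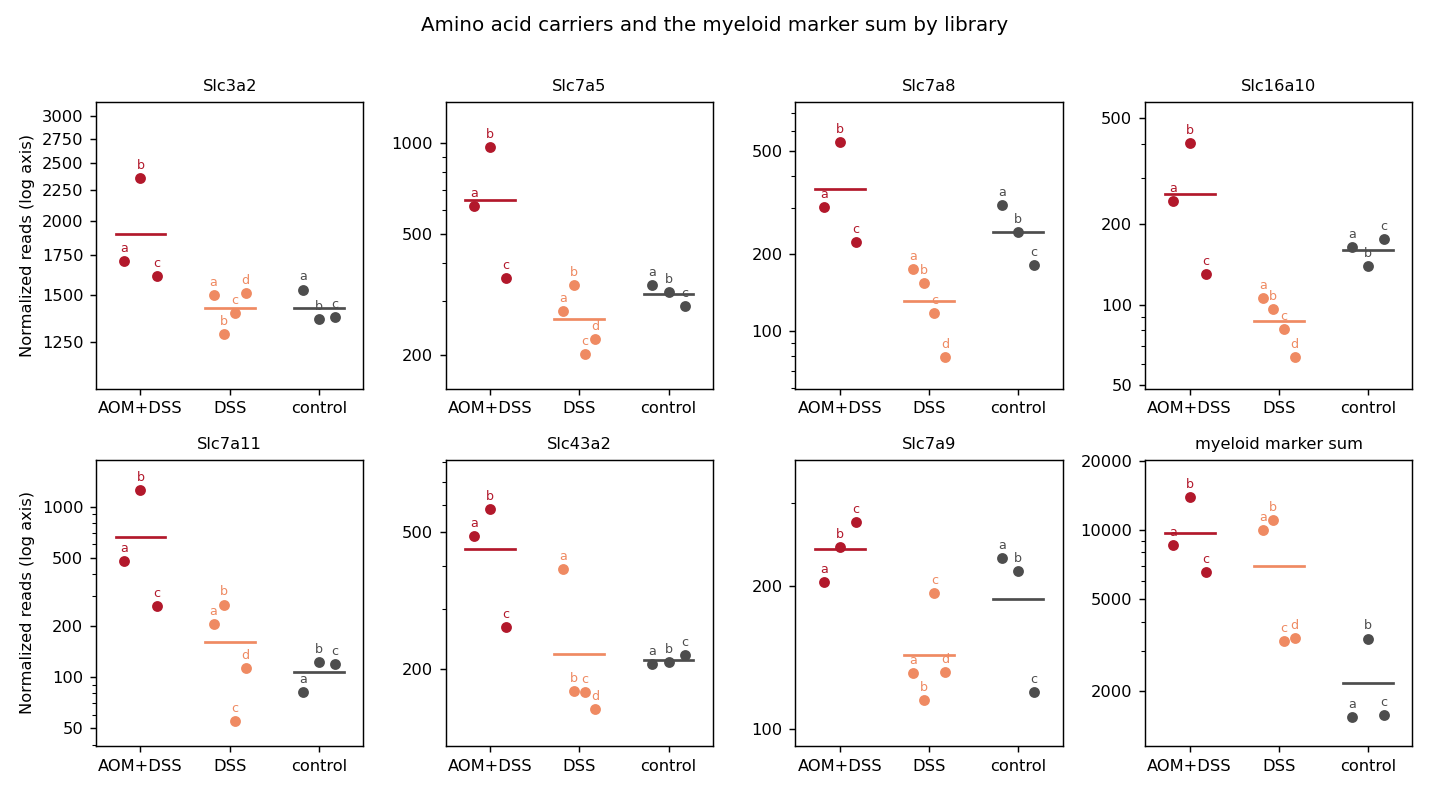
Normalized reads per library on a log axis for 7 amino acid carriers and for the summed myeloid markers; letters are libraries and bars are group means. In every panel but that of Slc7a9 AOM+DSS library b is the highest of its group and library c the lowest, from 2363 against 1616 for Slc3a2 to 1242 against 261 for Slc7a11, and Slc7a9 is highest in c (273).

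Of the carriers of serotonin, Slc6a4 fell in both comparisons and Slc18a1 rose in AOM+DSS. Slc6a4 (SERT), which takes serotonin back up into enterocytes, held 245, 166 and 278 normalized reads in AOM+DSS, 366, 332, 296 and 197 in DSS and 840.0, 993 and 807 in control. Every control library lay above every treated one, and AOM+DSS and DSS overlapped. Slc6a4 fell by 1.94 in AOM+DSS (adjusted p = 1.09e-10) and fell by 1.56 in DSS (adjusted p = 2.99e-07) as log2 ratios listed in the authors' deposited table. Slc18a1 (VMAT1), which loads serotonin into the vesicles of enterochromaffin cells, held 369.6, 358 and 186 in AOM+DSS, 98.8, 121, 103 and 72.9 in DSS and 105, 102 and 121 in control. The AOM+DSS libraries lay above all others, with library c the lowest of them, while DSS and control overlapped. Slc18a1 rose by 1.48 in AOM+DSS (adjusted p = 0.00600) and stood at -0.14 in DSS (adjusted p = 1) as reported in the authors' deposited table.

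Of the monocarboxylate carriers, Slc16a3 and Slc16a12 moved most. Slc16a3 (MCT4), the lactate exporter of glycolytic cells, held 1991, 2663 and 1443 normalized reads in AOM+DSS, 601, 722, 915 and 1179 in DSS and 562, 403 and 340.0 in control. The groups did not overlap, with AOM+DSS highest and control lowest, and within DSS the shallow libraries c and d were above a and b. Slc16a3 rose by 2.22 in AOM+DSS (adjusted p = 1.08e-05), and 0.97 in DSS did not pass (adjusted p = 0.285), as log2 ratios listed in the authors' deposited table. Its AOM+DSS libraries had the same order as the myeloid sums, and its DSS libraries the opposite one to the pairs of those sums, in which a and b were the high ones. Bsg (basigin), the chaperone of Slc16a3, held 12606, 11819.9 and 13420.5 in AOM+DSS and 12256, 12193 and 12727 in control, with log2 ratios of 0.03 in AOM+DSS and 0.17 in DSS as given in the authors' deposited table. Slc16a12, a creatine carrier, held 107, 57.9 and 85.1 in AOM+DSS, 104, 95.6, 80.7 and 51.2 in DSS and 179, 231 and 213 in control. It fell by 1.32 in AOM+DSS (adjusted p = 0.0116) and fell by 1.33 in DSS (adjusted p = 0.0161) listed in the authors' deposited table. Slc13a2, the luminal carrier of citrate and succinate, held 2411, 1438 and 3752 in AOM+DSS and 5036, 4972 and 6392 in control, with a DSS mean of 4369.8, and did not pass (adjusted p = 0.167 and 0.802, authors' deposited table).

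Vitamin carriers were unequal. Slc5a6 (SMVT), which takes up biotin and pantothenate, held 505, 284 and 595 normalized reads in AOM+DSS, 652, 856, 474 and 515 in DSS and 1553, 1000.4 and 1571 in control. All treated libraries lay below all controls. Slc5a6 fell by 1.58 in AOM+DSS (adjusted p = 0.000133) and fell by 1.14 in DSS (adjusted p = 0.0231) as listed in the authors' deposited table. The folate carrier Slc19a1 held 263, 415 and 297 in AOM+DSS, 240.3, 306, 242 and 248 in DSS and 555, 398 and 442 in control, and it fell in DSS (log2 -0.84, adjusted p = 0.0375 as reported in the authors' deposited table). Slc19a2, a thiamine carrier of the same family, held 454, 669 and 495 in AOM+DSS, 390.5, 391, 389 and 344 in DSS and 309, 310.1 and 265 in control. Its 3 groups did not overlap, and it rose in AOM+DSS (log2 0.87, adjusted p = 0.0191), while DSS gave 0.36 (adjusted p = 0.628), as given in the authors' deposited table. Slc23a2, a vitamin C carrier, held 2171, 2616 and 2086 in AOM+DSS, 2241, 1879, 1572 and 1525 in DSS and 1319, 1648 and 1378 in control, and rose in AOM+DSS (log2 0.66, adjusted p = 0.0316 listed in the authors' deposited table). Slc46a1, the intestinal folate carrier, had means of 833 in AOM+DSS, 737 in DSS and 1054 in control and did not pass.

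**Figure D4:**
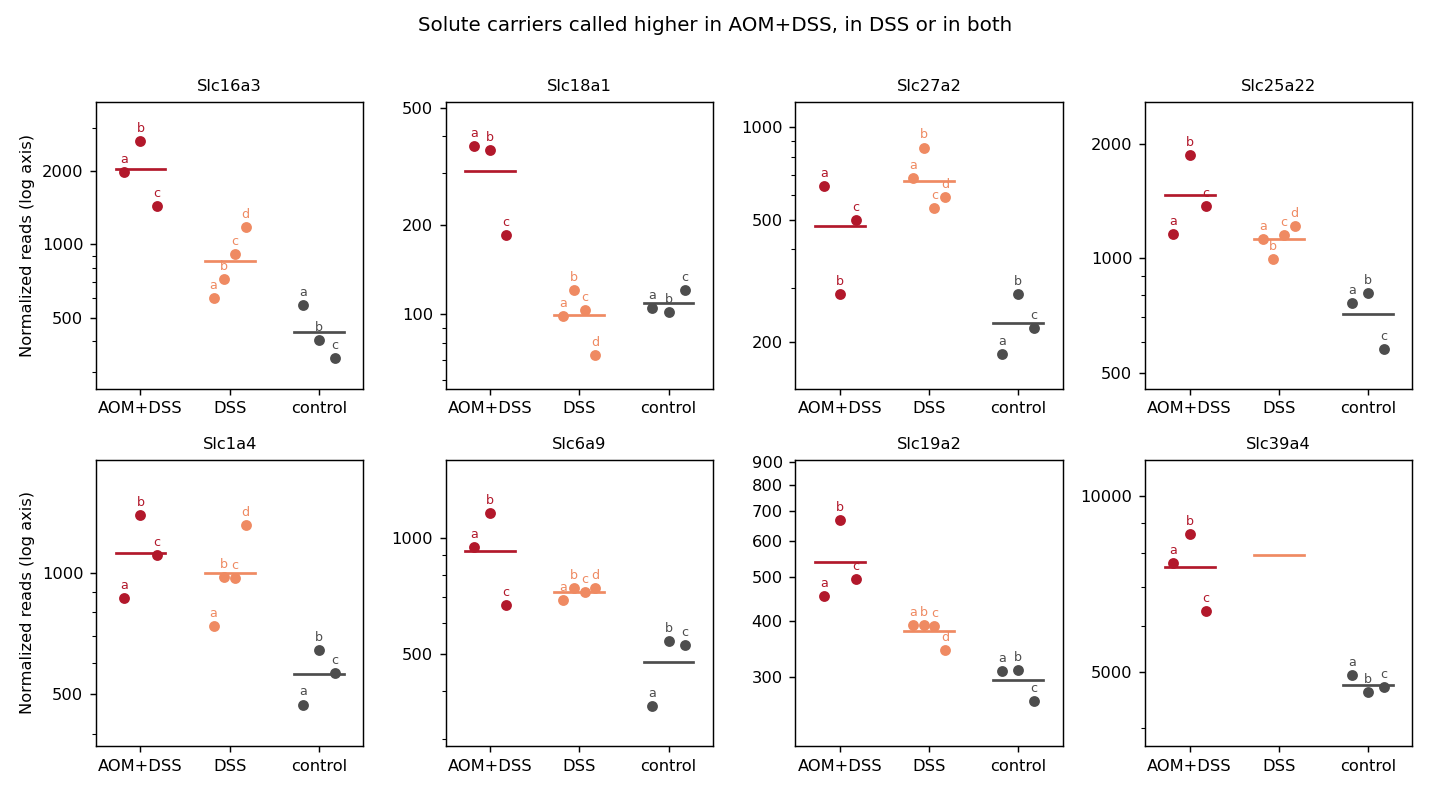
Normalized reads per library on a log axis for 8 carriers called higher in AOM+DSS, of which Slc27a2 and Slc39a4 were also called higher in DSS; letters are libraries, bars are group means, and Slc39a4 has a mean only in DSS. The AOM+DSS libraries of Slc16a3 (1991, 2663 and 1443) lie above those of DSS and control, whereas for Slc27a2 AOM+DSS library b lies at the level of control library b.

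Mitochondrial carriers of metabolites and nucleotides mostly stayed near control. Slc25a34, whose substrate is not settled, held 357, 357 and 461 normalized reads in AOM+DSS, 466, 427, 633 and 539.8 in DSS and 1381, 1359 and 973 in control. No treated library reached the lowest control. Slc25a34 fell by 1.66 in AOM+DSS (adjusted p = 2.00e-09) and fell by 1.26 in DSS (adjusted p = 1.26e-06) as listed in the authors' deposited table. Slc25a22, a glutamate carrier, held 1156, 1866 and 1375 in AOM+DSS, 1126, 994, 1149.9 and 1213 in DSS and 759.8, 808 and 577 in control. It rose in AOM+DSS (log2 1.04, adjusted p = 0.000408), and DSS gave 0.65 (adjusted p = 0.0912), as reported in the authors' deposited table. The coenzyme A carrier Slc25a42 fell in AOM+DSS, with 258, 218 and 327 in AOM+DSS and 489, 489.8 and 472 in control (log2 -0.85, adjusted p = 0.0223 as given in the authors' deposited table). Slc25a23, a calcium-regulated carrier of ATP and phosphate, held 321, 318 and 278 in AOM+DSS, 287, 180.4, 195 and 216 in DSS and 509, 464 and 478 in control, and fell in DSS (log2 -1.14, adjusted p = 0.00156 listed in the authors' deposited table). The adenine nucleotide carrier Slc25a5 averaged 17208 ± 259 in AOM+DSS and 20888 ± 1770.1 in control (SD, n = 3 each), with a DSS mean of 19518, and did not pass. Its close paralog Slc25a4, with which reads could be shared, held 698, 1282 and 577 in AOM+DSS, 483, 266, 430.5 and 386 in DSS and 266, 508 and 348 in control and did not pass either (adjusted p = 0.129 and 1, authors' deposited table). The pyruvate carrier genes Mpc1 and Mpc2, which lie outside the solute carrier symbols, had log2 ratios of -0.46 and -0.43 in AOM+DSS and -0.41 and -0.08 in DSS and did not pass as listed in the authors' deposited table.

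Among metal carriers, the zinc importer Slc39a4 rose in both comparisons and the zinc importer Slc39a5 fell in AOM+DSS. Slc39a4 (ZIP4), the luminal zinc importer, held 7684, 8618 and 6351 normalized reads in AOM+DSS and 4932, 4619.9 and 4703 in control, with a DSS mean of 7935. The AOM+DSS libraries all lay above control. Slc39a4 rose by 0.67 in AOM+DSS (adjusted p = 0.0165) and by 0.74 in DSS (adjusted p = 0.0165) as reported in the authors' deposited table. Slc39a5 (ZIP5), the basolateral importer, held 1206, 599 and 1757 in AOM+DSS, 1502, 1640.5, 2036 and 2059.8 in DSS and 2593, 2190.5 and 2976 in control. It fell by 1.12 in AOM+DSS (adjusted p = 0.000535), while DSS gave -0.52 (adjusted p = 0.252), as given in the authors' deposited table. The zinc exporter Slc30a1 had means of 775 in AOM+DSS, 1147 in DSS and 679.9 in control, and the zinc-binding metallothioneins Mt1 and Mt2 had log2 ratios of -0.27 and 0.67 in AOM+DSS and -0.56 and -0.02 in DSS, none of which passed listed in the authors' deposited table. The iron exporter ferroportin, Slc40a1, held 4636, 2779 and 4947 in AOM+DSS and 6699.6, 5700.4 and 4845 in control with a DSS mean of 3833, and the copper importer Slc31a1 averaged 5138 ± 475 in AOM+DSS and 4749 ± 232 in control (SD, n = 3 each). Neither passed.

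Ion carriers that passed were all lower. Slc24a6, which exchanges sodium for calcium at the inner mitochondrial membrane, held 1050.0, 849 and 1725 normalized reads in AOM+DSS, 1526, 1364, 1888 and 1554 in DSS and 2788, 2499.6 and 2920.2 in control. Control lay above both treated groups. Slc24a6 fell by 1.18 in AOM+DSS (adjusted p = 2.46e-06) and fell by 0.79 in DSS (adjusted p = 0.00340) as listed in the authors' deposited table. Slc4a4, a sodium bicarbonate cotransporter, held 1111, 873 and 1135 in AOM+DSS, 1561, 1776, 906 and 1066 in DSS and 1700.2, 2064 and 2440.4 in control, and fell in AOM+DSS (log2 -0.99, adjusted p = 0.00827 as reported in the authors' deposited table). The sulfate carrier Slc26a2 held 4370.2, 4053 and 4810.1 in AOM+DSS and 8175, 13100.3 and 6563 in control, with a DSS mean of 5029. Control library b was its high one, and its log2 ratios of -1.07 in AOM+DSS (adjusted p = 0.0616) and -0.88 in DSS (adjusted p = 0.277) did not pass as given in the authors' deposited table. The anion exchanger Slc4a2 averaged 3871 ± 249 in AOM+DSS and 5575 ± 799 in control (SD, n = 3 each), with a DSS mean of 5165, and did not pass.

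Fatty acid carriers held the member with the largest called rise in DSS. Slc27a2 (FATP2), which couples fatty acid uptake to coenzyme A activation, held 645, 286 and 499 normalized reads in AOM+DSS, 682, 859, 547 and 594 in DSS and 182, 286 and 222 in control. All DSS libraries lay above control, whereas AOM+DSS library b lay level with control library b. Slc27a2 rose by 1.05 in AOM+DSS (adjusted p = 0.0257) and by 1.54 in DSS (adjusted p = 0.000124) as listed in the authors' deposited table. Limma did not call Slc27a2 in AOM+DSS (adjusted p = 0.0583), and of the 6 limma fits that left out 1 library, those without control library b (adjusted p = 0.0466) and without AOM+DSS library b (0.0191) called it, and the other fits did not (up to 0.190). The choline carrier family member Slc44a4 averaged 15317 ± 641 in AOM+DSS and 13372 ± 1182 in control (SD, n = 3 each), with a DSS mean of 15341, and did not pass.

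Of the carriers that serve the Golgi apparatus, Slc35e3, an orphan member of the nucleotide sugar family, held 214, 233 and 249 normalized reads in AOM+DSS, 277, 283, 166 and 191 in DSS and 654, 449 and 560.3 in control. It was the one member of this class that passed, and it fell by 1.26 in AOM+DSS (adjusted p = 0.000293) and fell by 1.28 in DSS (adjusted p = 0.000458) as reported in the authors' deposited table. The other members lay between log2 ratios of -0.38 and 0.41 in AOM+DSS and between -0.30 and 0.53 in DSS as given in the authors' deposited table. Among them, the GDP-fucose carrier Slc35c1 averaged 5609 ± 507 in AOM+DSS and 6186 ± 454 in control (SD, n = 3 each), with a DSS mean of 6941. The UDP-N-acetylglucosamine carrier Slc35a3 averaged 4755 ± 577 in AOM+DSS and 4962 ± 579 in control (SD, n = 3 each), with a DSS mean of 4786.

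Nucleoside carriers gave no calls in the authors' test, and the class of phosphate and vesicular carriers gave none other than Slc18a1. The equilibrative nucleoside carrier Slc29a1 held 674, 807 and 768 normalized reads in AOM+DSS, 688, 715, 991 and 887 in DSS and 1280.2, 919 and 1283 in control (adjusted p = 0.0678 and 0.155 listed in the authors' deposited table). The sodium-coupled Slc28a3 held 1086, 981 and 609 in AOM+DSS, 849, 842, 603 and 634 in DSS and 512, 632 and 451 in control (adjusted p = 0.0506 and 0.377 as listed in the authors' deposited table). Slc29a1 libraries of AOM+DSS lay below control, and Slc28a3 libraries of AOM+DSS and control overlapped. Slc29a4, a carrier of monoamines and nucleosides, held 84.0, 94.3 and 66.3 in AOM+DSS, 58.5, 33.8, 256 and 200.1 in DSS and 124, 306 and 383 in control, and limma called Slc29a4 and Slc29a1 lower in AOM+DSS (limma adjusted p = 0.0353 and 0.0322). The phosphate importer Slc20a2 averaged 1060.1 ± 209 in AOM+DSS, 849 in DSS and 1217 ± 220.0 in control (SD, n = 3 each for AOM+DSS and control), and the vesicular nucleotide carrier Slc17a9 had means of 1751, 2411 and 2379 in AOM+DSS, DSS and control.

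The comparison of AOM+DSS with DSS does not contain the control mean that chose the members. Dose and time are not given for either group, and the part of azoxymethane itself in the differences was not tested. The comparison was made with limma on log2 values of recovered reads for the 146 members recovered in DSS. The lowest DSS mean not recovered was 1383, so this set was chosen in part by the DSS mean and leaves out members high in DSS. Slc18a1 was the one member called, with a log2 difference of 1.57 ± 0.30 (SE; adjusted p = 0.0374, Benjamini-Hochberg). That is 0.685% of the members upward, where 2.1% of 11550 genes fitted were called upward, and 0 members were called downward, where 0.0779% of genes were. At an unadjusted p under 0.05, 15 members (10.3%) were higher and 6 (4.11%) lower by limma, beside 9.87% and 3.71% of all genes fitted. In 10 members (6.85%) every AOM+DSS library lay above every DSS library, and in 5 (3.42%) below, beside 8.72% and 4.18% of all genes fitted, so the members' shares were near the background. Leaving out any 1 library other than AOM+DSS library c took the Slc18a1 call away (limma adjusted p = 0.0601 to 0.207). Without AOM+DSS library c its limma adjusted p was 0.00987. In that fit 6 members were called, and the share of all genes called there is not given.

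Other members did not pass. The difference was 1.25 ± 0.27 for the lactate carrier Slc16a3 (limma adjusted p = 0.0580). Slc16a10, Slc7a8 and Slc7a5 had differences of 1.45 ± 0.38, 1.39 ± 0.37 and 1.22 ± 0.33 (limma adjusted p = 0.115, 0.120 and 0.129). The members whose AOM+DSS libraries all lay above DSS were Slc3a2, Slc7a5, Slc7a8, Slc7a9, Slc16a10, Slc16a3, Slc18a1, Slc19a2, Slc25a4 and Slc48a1, and those all below included Slc25a40, Slc35b2 and Slc44a3. The first 5 of these names belong to the amino acid and peptide class, listed first here, which makes up 26 of the 146 members fitted. Whether that class stood out was not tested. The widest difference, 1.97 ± 0.64 for Slc7a11 (limma adjusted p = 0.210), also had the widest error among the members labelled in the plot of differences.

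**Figure D5:**
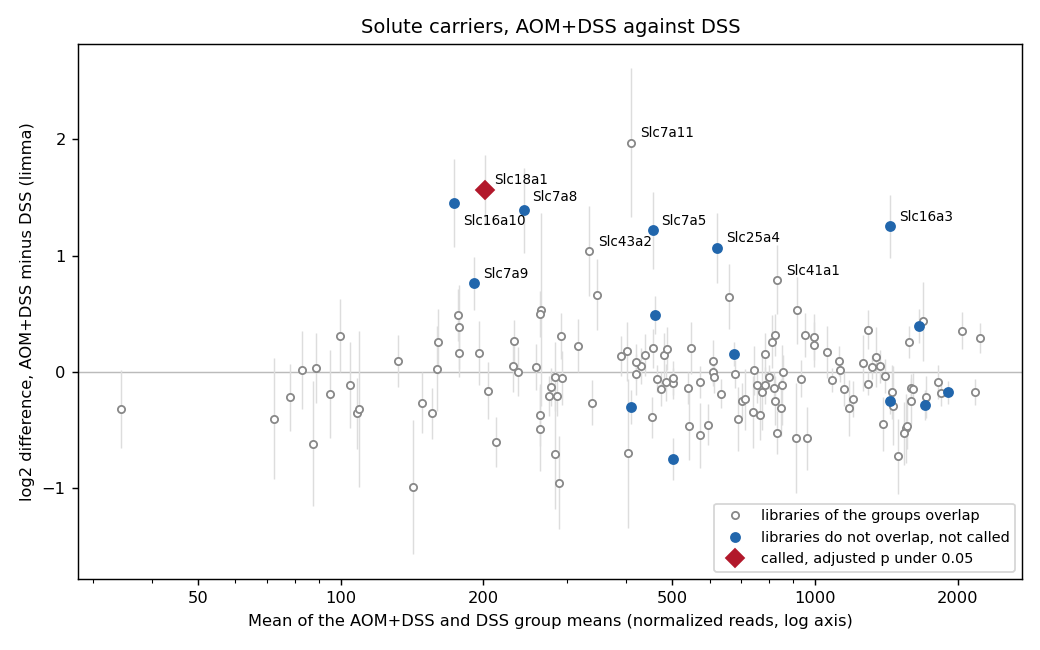
The vertical axis is the limma log2 difference, AOM+DSS minus DSS, with its SE as a grey bar, and the horizontal axis is the mean of both group means in normalized reads (log axis) for 146 solute carrier genes. Slc18a1 at 1.57 is the one called member, and Slc16a3 at 1.25, Slc16a10 at 1.45 and Slc7a8 at 1.39 have libraries that do not overlap but were not called.

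Genes that work with solute carriers gave no calls in the authors' test. Of 28 listed partners, 26 stood in the tables and 25 were tested, and 0 passed in either comparison of the authors' deposited table by DESeq, where 4 were higher and 4 lower in AOM+DSS and 1 higher and 4 lower in DSS at an unadjusted p under 0.05. Of 24 fitted in AOM+DSS, limma called 2 higher (Emb and Hmox1) and 1 lower, and of 17 fitted in DSS it called 1 lower. Over all genes fitted, limma called 22.6% in AOM+DSS and 7.96% in DSS, in either direction. Of the 11 separately named carriers, 0 were higher and 4 lower in AOM+DSS and 0 higher and 3 lower in DSS as given in the authors' deposited table.

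Of 50 members described by rule, 15 overlap an exon of another gene in GENCODE M21, and because the kit does not mark strand, reads from both cannot be told apart there. Among the called ones of these 50, this concerns Slc27a2, Slc6a9, Slc45a3, Slc5a6, Slc1a1 and Slc25a23. They overlap Gm26697, Ccdc24 and Gm17114, Gm29103, Atraid, 4430402I18Rik and Gm17168 in that order. The called members Slc1a5, Slc2a13, Slc4a4 and Slc25a42, named beyond the rule, were not looked up. At the floor, Slc3a1, which overlaps Prepl, held 196, 115 and 273 normalized reads in AOM+DSS, 255, 233, 582 and 461 in DSS and 28.96, 226 and 49.8 in control. Control library b was the high one, libraries a and c stood under 100 normalized reads, and the log2 ratios of 0.94 in AOM+DSS and 1.91 in DSS did not pass listed in the authors' deposited table (adjusted p = 0.568 and 0.115).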

How the data were processed

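Expression was measured by RNA sequencing in 10 libraries of mouse distal colon crypts: 3 AOM+DSS, 4 DSS and 3 control, grouped by the labels' treatment field. Poly(A) RNA was made into unstranded TruSeq v2 libraries, per the labels' protocols. TopHat2 2.0 placed the reads on mm9 and the authors compared groups with DESeq, per the submitters' processing notes. The sources used here do not name the counter, the annotation, the strand setting or the version of DESeq.

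Per the file headers, the deposited signal columns are group means of normalized read counts, fold change divides the treated mean by the control mean, log2 columns hold its logarithm, and p-values come from DESeq with Benjamini-Hochberg adjustment. The file header of one table speaks of 4 AOM replicates, while the labels list 3. The members, classes and lists were chosen with earlier results of these data known. The call rule against control was the authors' adjusted p under 0.05.

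Whole reads per library were recovered where exactly 1 combination of reads gave the printed mean of up to 15 digits, for 99.9% of genes in AOM+DSS, 90.4% in DSS and 99.9% in control. These genes make up 95.3%, 35.0% and 94.0% of the mean totals, and on simulated data of 3000 genes 99.9%, 91.0% and 99.8% were recovered with 0 wrong. The lowest DSS mean not recovered was 1383, so values per library for DSS exist for genes of lower and middle level. Libraries of a group differed by 4.28 to 71.4 in chi-square per degree of freedom, more than counting noise, and none were merged. Size factors ranged from 0.905 to 1.34 in AOM+DSS and from 0.944 to 1.04 in control.

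Log2(normalized recovered reads + 1) values were fitted with limma 3.58.1 (trend, R 4.3.3) over genes with a mean of at least 10, with Benjamini-Hochberg adjustment over all genes fitted. Its fold changes are differences of mean log values, which understate changes of low genes. On simulated data for AOM+DSS against DSS with 200 changed genes, it found 49% of 2-fold and 79% of 4-fold changes, and 7 unchanged genes were called among 11437 genes. For AOM+DSS against control it found 59% and 90%, and for DSS against control 53% and 93%. Substrate classes went by family number, except that Slc16a10 and Slc5a6 were placed by their own substrates. Members named are the called ones with the 12 highest and 12 lowest log2 ratios, the 6 smallest p between AOM+DSS and DSS, the 2 highest control means per class and the 3 on each side of the floor. Slc1a5, Slc2a13, Slc3a2, Slc4a4, Slc7a9, Slc7a11, Slc7a4, Slc7a6, Slc25a4, Slc25a42, Slc29a4, Slc30a1, Slc31a1, Slc35d1, Slc35e4, Slc35f6, Slc43a2, Slc46a1 and the members listed only as not overlapping are named beyond this rule, chosen with their values known, as was the view of families Slc3 and Slc7. Some genes that the rule or the lists pick are counted but not reported here by name. Alternatives were limma for the authors' test, other thresholds, floors, pseudocounts, scaling and filters, and left-out libraries.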

Additional observations from a re-analysis of the deposited data

Results flagged for a closer look

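Slc18a1, which loads monoamines into vesicles, differed between AOM+DSS and DSS by 1.57 on the log2 scale (limma, Benjamini-Hochberg adjusted p = 0.0374 over all genes fitted). Higher values stood in all 3 AOM+DSS libraries (369.6, 358 and 186 normalized reads) than in all 4 DSS libraries (98.8, 121, 103 and 72.9).

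In DSS, 32 of the members described by rule had values for 4 libraries, and in 2 of them 1 library stood apart from the other 3; chance gives about 1 in 20. The thiamine carrier Slc19a2 had its lowest DSS library at 344 normalized reads, with the nearest at 389. The folate carrier Slc19a1 had its highest DSS library at 306 normalized reads, with the nearest at 248.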

How the results depend on the processing

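In AOM+DSS against control, 26 members were called by the authors' adjusted p; 17 at a threshold of 0.01, 51 by limma, 10 to 79 by limma leaving out 1 library at a time, and 93 leaving out control library b and AOM+DSS library c, which was chosen after seeing the data. In DSS against control, 14 were called, 4 to 19 leaving out 1 library at a time, and 37 without DSS libraries a and b, also chosen after seeing the data. Between AOM+DSS and DSS, limma called 1, and it called 3 at a threshold of 0.1, 0 at 0.01 and 0 with a control floor of 200. It called 2 without the filter on low values and 0 to 6 leaving out 1 library at a time. Without DSS libraries a and b, a choice made after seeing the data, it called 21. The shares of all genes called between AOM+DSS and DSS under these settings are not given, so these counts cannot be set beside a background. The cause of these changes was not tested.

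None of the named calls changed sign under any alternative run. Of 22 members named for AOM+DSS against control, limma called 21, all but Slc27a2, and 7 passed in every fit that left out 1 library (Slc1a1, Slc2a5, Slc6a4, Slc16a3, Slc25a34, Slc35e3 and Slc36a1). Of 14 named for DSS against control, limma fitted 12 and called all of them, and 4 passed in every such fit (Slc1a1, Slc2a5, Slc6a4 and Slc27a2). A pseudocount of 10 left the median ratios in place. No paired analysis was possible because the tables carry no replicate numbers and the recovered libraries cannot be tied to those of the labels, so the planned replicate block was not run. Where reads were not recovered, the spread between DSS libraries is unknown.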
